A study of Homo sapiens with 32 samples.

Results

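RNA of 10 genes known from epithelial cells was followed in 4 human T-cell lines. The genes were the keratins KRT7, KRT8, KRT18 and KRT19, the adhesion and junction genes CDH1, EPCAM, CLDN4 and TJP3, and the epithelial regulators ESRP1 and ELF3. They were taken by gene symbol, 10 of the 25559 symbols counted in each of 32 libraries. The lines were cultured for 96 hours with romidepsin plus azacitidine, with azacitidine, with romidepsin or with no drug. Romidepsin is a histone deacetylase inhibitor. Azacitidine, an analogue of cytidine, traps the enzymes that methylate DNA.

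By their labels the lines represent T-cell acute lymphoblastic leukemia (PF382), adult T-cell leukemia (TLOm1) and cutaneous T-cell lymphoma (HH, H9). In each line 3 cultures had both drugs, 3 had azacitidine, 1 had romidepsin and 1 was untreated. Azacitidine was given daily at 125, 250 and 500 nM in PF382 and TLOm1, and at 50, 125 and 250 nM in HH and H9. Romidepsin was added once at the start, at 1 nM in H9 and TLOm1 and 1.25 nM in PF382. HH had 1.25 nM in the combinations but 1 nM alone, so its combination cultures differ from romidepsin alone in both drugs. There was 1 library per line and condition, each line is 1 established cell line grown alone in culture, and the 4 lines were the replicates (n = 4).

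Keratins are the intermediate filament proteins of epithelia and work as pairs of 1 type II and 1 type I chain. KRT8 (type II) pairs with KRT18 (type I) in simple epithelia, where KRT7 and KRT19 are also found. Cadherins, claudins and their cytoplasmic partners join neighbouring epithelial cells, and such junctions are typical of epithelia, not of blood cells. Many epithelial genes are kept silent in other lineages by DNA methylation at CG dinucleotides and by histone deacetylation, the marks on which these drugs act.

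The libraries held 16175077 to 32496676 counts, so a floor of 3 counts lay between 0.0923 and 0.185 CPM (counts relative to the library total). Markers of T cells were present: all 14 on the list were over the floor in every PF382 and H9 library, 12 to 14 in HH and 9 to 13 in TLOm1, where CD3D had 0 to 18 counts. No 2 libraries were alike within sampling noise. Total RNA per cell was not measured, and in bulk RNA a change in the share of expressing cells and a change in RNA per cell cannot be told apart. Counting intervals (95%, exact) and floors cover counting error only.

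Promoter sequences were listed by RefSeq (GRCh38.p14) for 4 of the 10 genes, namely KRT8, CLDN4, TJP3 and ELF3. The windows of 300 bases (250 before the start, 50 after) are shown for KRT8, which answered azacitidine, for CLDN4 and ELF3, whose highest counts were in TLOm1 under both drugs, and for the start of TJP3 with fewer CG dinucleotides. Capitals mark every CG. The KRT8 window lies on the minus strand at chr12:52926420-52926719, and the others on the plus strand at chr7:73830746-73831045 (CLDN4), chr1:202010337-202010636 (ELF3) and chr19:3708134-3708433 (TJP3).
KRT8: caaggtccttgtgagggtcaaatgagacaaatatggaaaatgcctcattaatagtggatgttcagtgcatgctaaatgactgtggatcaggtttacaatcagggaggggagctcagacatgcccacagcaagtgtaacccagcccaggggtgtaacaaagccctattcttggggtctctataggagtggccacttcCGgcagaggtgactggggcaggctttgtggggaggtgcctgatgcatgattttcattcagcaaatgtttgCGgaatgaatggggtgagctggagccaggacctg
CLDN4: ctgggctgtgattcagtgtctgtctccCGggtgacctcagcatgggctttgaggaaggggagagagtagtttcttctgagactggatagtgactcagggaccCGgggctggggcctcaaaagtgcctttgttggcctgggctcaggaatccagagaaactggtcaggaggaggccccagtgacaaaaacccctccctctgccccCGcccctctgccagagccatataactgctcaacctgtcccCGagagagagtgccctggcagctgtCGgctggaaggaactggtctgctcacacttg
ELF3: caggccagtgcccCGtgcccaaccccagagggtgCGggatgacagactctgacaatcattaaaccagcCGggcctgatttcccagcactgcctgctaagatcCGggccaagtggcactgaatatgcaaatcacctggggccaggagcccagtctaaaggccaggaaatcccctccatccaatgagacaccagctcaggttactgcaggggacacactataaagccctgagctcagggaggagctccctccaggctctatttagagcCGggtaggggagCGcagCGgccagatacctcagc
TJP3: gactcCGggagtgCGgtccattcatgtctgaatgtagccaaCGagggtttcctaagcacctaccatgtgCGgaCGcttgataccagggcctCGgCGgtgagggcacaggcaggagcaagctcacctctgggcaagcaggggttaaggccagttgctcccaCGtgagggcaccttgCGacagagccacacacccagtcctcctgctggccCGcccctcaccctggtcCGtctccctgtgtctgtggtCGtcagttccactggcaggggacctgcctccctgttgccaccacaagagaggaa
These windows hold 2 CG in KRT8, 5 in CLDN4, 7 in ELF3 and 12 in TJP3, against a median of 14 over 35116 RefSeq promoter windows of that length. The KRT8 window is CG-poor, since 89.0% of all windows hold at least as many. A further TJP3 start, at chr19:3721487-3721786, has 24 CG. The E-box CACCTG or its reverse CAGGTG, the sequence bound by ZEB and SNAI repressors, was found once in the ELF3 window and once in the second TJP3 window, and in 20.6% of all windows. It was not among the letters of the other 3. The GC box GGGCGG or its reverse CCGCCC was found once in CLDN4 and once in each TJP3 window, and in 45.0% of all windows, and it contains a CG itself. Transcript starts were not measured, so the listed windows, that of KRT8 among them, may not be the starts used in these cells. DNA methylation and factor binding were not measured, and a match is a description only.

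Before treatment the lines differed widely in these genes, and no line expressed the whole set. Per kilobase of transcript, untreated H9 cells held 55.2 CPM of EPCAM, 51.7 of KRT7, 11.9 of ESRP1 and 11.9 of TJP3, and between 0 and 1.40 of the other 6. In untreated TLOm1 the leading members were KRT7 at 18.0, CDH1 at 7.83 and KRT8 at 4.85 CPM per kilobase. Untreated HH expressed KRT7 at 28.6 CPM per kilobase, with every other member at 0.213 or below, and untreated PF382 held ESRP1 at 2.86, KRT18 at 1.59 and KRT8 at 1.15. With 1 library per line, counting error is the only error of these orders that could be estimated, and variation between cultures was not measured. The keratin KRT19 was near the floor in every library, at 0 counts in 26 of 32 and at most 10 counts, in TLOm1 under romidepsin with azacitidine 500 nM. It did not pass the filter on low counts, so 9 of the 10 genes were tested.

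**Figure D1:**
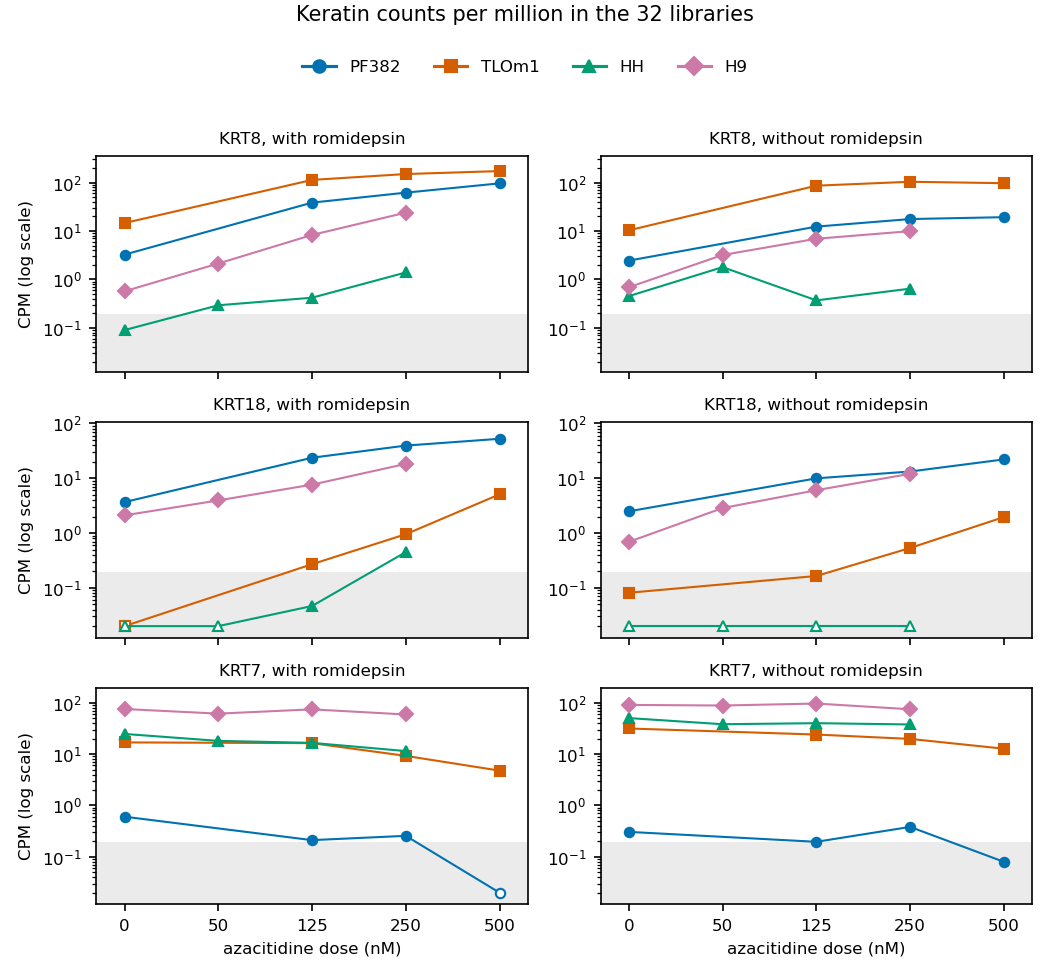
CPM of KRT8, KRT18 and KRT7 (rows, log axis) against azacitidine dose in nM, with romidepsin (left) and without it (right). Each point is 1 library, colours and shapes are the 4 lines, open points are 0 counts drawn at 0.02, and the grey band lies under the highest floor of 3 counts, 0.185 CPM. In PF382, TLOm1 and H9, KRT8 and KRT18 are higher at every azacitidine dose than without azacitidine, while KRT7 is highest in H9 and lowest in PF382.

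KRT8, the type II keratin of simple epithelia, answered azacitidine in 3 lines. PF382 held 70, 911, 1448 and 2317 KRT8 counts at 0, 125, 250 and 500 nM azacitidine with romidepsin, against 56, 314, 415 and 483 without romidepsin. TLOm1 held 315, 2938, 3146 and 3323 counts at these doses with romidepsin, against 254, 2093, 2526 and 2284 without it. H9 held 13, 52, 231 and 528 counts at 0, 50, 125 and 250 nM with romidepsin, against 18, 94, 176 and 273 without it. In these 3 lines every library with azacitidine lay above both libraries without it. HH held 2, 7, 9 and 31 counts at 0, 50, 125 and 250 nM with romidepsin, against 11, 29, 12 and 16 without it, with no order by dose without romidepsin. The highest combination dose over untreated gave a CPM ratio of 39.3 in PF382 (30.2 to 52.2), 34.6 in H9 (21.7 to 58.9), 16.7 in TLOm1 (14.7 to 19.0) and 3.08 in HH (1.51 to 6.79).

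KRT18, the type I partner of KRT8, rose alongside it with azacitidine in PF382 and H9 but started near 0 in TLOm1 and HH. PF382 held 79, 560, 923 and 1263 KRT18 counts at 0, 125, 250 and 500 nM azacitidine with romidepsin, against 57, 254, 312 and 552 without romidepsin. H9 held 48, 96, 213 and 403 counts at 0, 50, 125 and 250 nM with romidepsin, against 18, 84, 154 and 331 without it. The pair did not move together in H9 under romidepsin alone, where KRT8 had 13 counts against 18 untreated. In TLOm1 there were 0, 7, 20 and 98 counts with romidepsin and 2, 4, 13 and 46 without it, at 0, 125, 250 and 500 nM. In HH, KRT18 was at 0 in 6 of 8 libraries, with 1 count and 10 counts in the combinations at 125 and 250 nM. The last of these is at least 3.64-fold above untreated HH, taking 3 counts as the floor of the untreated library. The ratio of the highest combination to untreated cells was 26.4 in H9 (16.5 to 45.0), 21.1 in PF382 (16.1 to 28.0) and 62.5 in TLOm1, whose 2 untreated counts leave an interval of 16.8 to 523.

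Both keratins rose at azacitidine 250 nM, the highest dose given to all 4 lines. KRT8 rose by 3.11 ± 0.46 log2 units (adjusted p = 2.75e-04, edgeR's quasi-likelihood test) and KRT18 by 3.03 ± 0.56 (adjusted p = 0.00223). The ± values are SE from the pooled fit of all 32 libraries, in which the 4 lines are the replicates (n = 4). HH showed no clear rise: it held 0 KRT18 counts in both of its compared libraries, and its KRT8 ratio was 1.43 (0.621 to 3.40). KRT8 and KRT18 were the 2 called of 9 tested members, where 5.99% of 17801 genes were called. With both drugs at 250 nM azacitidine against untreated cells, KRT8 rose by 4.26 ± 0.47 (adjusted p = 4.21e-06) and KRT18 by 4.24 ± 0.57 (adjusted p = 3.11e-05). In that comparison 4 of 9 members were called, and 23.0% of all genes. Against romidepsin alone, the combination raised KRT8 by 4.09 ± 0.46 (adjusted p = 9.99e-06) and KRT18 by 3.45 ± 0.53 (adjusted p = 2.69e-04), 2 of the 3 members called where 14.1% of genes were. KRT18 was not called at azacitidine 250 nM when H9 was left out (2.38, adjusted p = 0.133). Fitted on the compared libraries alone, neither keratin was called for azacitidine (adjusted p = 0.105 and 0.123) and KRT8 was not for the combination against untreated cells (0.0634).

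The same pair rose with dose. Within lines, KRT18 rose by 0.94 ± 0.12 log2 units per doubling of the azacitidine dose (adjusted p = 3.78e-05) and KRT8 by 0.52 ± 0.13 (adjusted p = 0.00763), in a fit that compares only libraries with azacitidine. KRT7 fell by 0.25 ± 0.08 (adjusted p = 0.0304), and no other member was called, so that 3 of 9 passed where 28.9% of genes did, a share near that background. The slope of KRT8 was 0.29 without H9 (adjusted p = 0.0604). That of KRT7 was lost in 7 of 16 fits with 1 line or dose left out, at -0.10 without TLOm1 (adjusted p = 0.288), and in each of those fits it was still negative.

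Averaged over azacitidine doses, romidepsin raised both keratins of the pair in PF382. Of the 4 pairs of libraries averaged in each line, 3 also had azacitidine. In PF382 romidepsin alone over untreated gave a CPM ratio of 1.33 for KRT8 (0.923 to 1.93) and 1.47 for KRT18 (1.04 to 2.11). In H9 these ratios were 0.824 for KRT8 (0.371 to 1.78) and 3.04 for KRT18 (1.74 to 5.56). For KRT8 the ratio was 1.41 in TLOm1 (1.19 to 1.67) and 0.199 in HH (0.0214 to 0.912), the last on 2 counts against 11. KRT18 had 0 counts under romidepsin alone in TLOm1 and HH. Over the 4 matched azacitidine doses (0 included), romidepsin raised KRT8 by 1.74 ± 0.27 log2 units (adjusted p = 1.78e-04) and KRT18 by 1.20 ± 0.17 (adjusted p = 2.73e-05) in PF382. In TLOm1 KRT18 rose by 1.03 ± 0.33 (adjusted p = 0.0211), while KRT8 had 0.52 ± 0.23 (adjusted p = 0.0978). In H9 the values were 0.59 ± 0.18 for KRT18 (adjusted p = 0.0788) and 0.47 ± 0.33 for KRT8 (adjusted p = 0.520), neither called. HH had -0.50 ± 0.72 for KRT8 (adjusted p = 0.675), and its called KRT18 change rests on the 11 counts above. The 4 romidepsin effects were unequal for KRT8 (adjusted p = 0.0259) and KRT18 (adjusted p = 0.0497, 3 degrees of freedom). Drug doses differed between lines, so line and dose cannot be told apart in this and later tests of unequal effects. The TLOm1 call of KRT18 was lost without the 500 nM pair of libraries (0.60, adjusted p = 0.495) or the 250 nM pair (1.12, adjusted p = 0.0505), and that of HH without its 250 nM pair (adjusted p = 0.476). Neither call held in limma-voom (adjusted p = 0.140 and 0.101). Averaged over the 4 lines at azacitidine 250 nM, adding romidepsin gave 1.15 ± 0.38 for KRT8 (adjusted p = 0.0730) and 1.21 ± 0.46 for KRT18 (adjusted p = 0.123), neither called.

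Azacitidine at any dose, set against none at matched romidepsin, was called for KRT8 in 3 lines, at 3.75 ± 0.82 in H9 (adjusted p = 0.00832), 3.53 ± 0.68 in PF382 (adjusted p = 0.00206) and 3.26 ± 0.60 in TLOm1 (adjusted p = 9.17e-04). HH gave 1.42 ± 1.27 (adjusted p = 0.586). The 4 KRT8 effects did not pass the test of inequality (adjusted p = 0.772), so HH is not shown to differ. KRT18 was called in PF382 (2.94 ± 0.87, adjusted p = 0.0389) and not in H9 (2.66 ± 0.90, adjusted p = 0.0823). The PF382 call of KRT18 was lost in 5 of 15 fits with a line or dose left out, with adjusted p up to 0.126 without its 500 nM libraries. The H9 call of KRT8 was not made by limma-voom (adjusted p = 0.103).

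**Figure D2:**
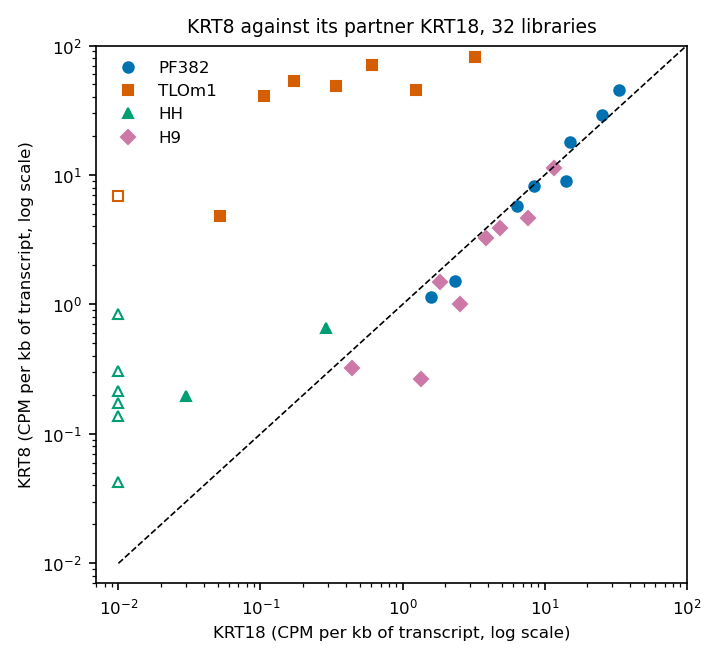
KRT8 against KRT18, each in CPM per kilobase of transcript on log axes, 1 point per library, coloured by line. Libraries with 0 KRT18 counts are open points drawn at 0.01, and the dashed line marks equal levels. PF382 lies near the line, H9 lies near or below it and TLOm1 lies far above it.

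The balance of the keratin partners differed between lines. Per kilobase, the KRT8 level was 0.643 to 1.35 of the KRT18 level in the 8 PF382 libraries and 0.199 to 0.963 in the 8 H9 libraries. In the 7 TLOm1 libraries with any KRT18 count it was 24.9 to 384 times the KRT18 level. The ranges of H9 and PF382 overlap, and that of TLOm1 lies apart from both. KRT8 and KRT18 are neighbours whose RefSeq spans overlap on opposite strands, and the strand setting of the counting is not known here. The TLOm1 libraries with azacitidine held 2093 to 3323 KRT8 counts beside 4 to 98 KRT18 counts. Processed pseudogenes share sequence with both, and of the symbols counted KRT8P41 totalled 2 counts and KRT18P55 56 counts over 32 libraries. The flanking gene EIF4B, a translation factor, had 10967 to 24304 counts and had a log2 change of -0.07 ± 0.07 with both drugs at 250 nM (not called), and KRT78 on the other side had 0 to 4 counts.

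KRT7, a type II keratin of glandular epithelia, was abundant in H9, HH and TLOm1, and its counts were lower with romidepsin. H9 held 1723, 1497, 2074 and 1304 KRT7 counts at 0, 50, 125 and 250 nM azacitidine with romidepsin, against 2364, 2597, 2456 and 2055 without romidepsin. HH held 548, 432, 355 and 255 counts at these doses with romidepsin, against 1221, 617, 1299 and 936 without it. TLOm1 held 365, 424, 194 and 92 counts at 0, 125, 250 and 500 nM with romidepsin, against 775, 584, 481 and 300 without it. In HH all 4 libraries with romidepsin lay below all 4 without it, and in H9 and TLOm1 the ranges of counts overlapped. PF382 held 0 to 13 KRT7 counts.

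KRT7 fell with both drugs at 250 nM azacitidine by 1.45 ± 0.24 log2 units against untreated cells (adjusted p = 2.63e-04), by 1.02 ± 0.24 against azacitidine (adjusted p = 0.0180) and by 0.80 ± 0.24 against romidepsin (adjusted p = 0.0320). It was 1 of 2 members called against azacitidine, where 5.67% of genes were. Romidepsin alone gave -0.65 ± 0.24 (adjusted p = 0.720), and 0 members were called there by edgeR, DESeq2 or limma-voom, with KRT7 alone at an unadjusted p under 0.05. The background in edgeR was 0.0169% of genes. By line, romidepsin lowered KRT7 by 1.26 ± 0.12 in HH (adjusted p = 1.99e-07), 0.99 ± 0.13 in TLOm1 (adjusted p = 1.07e-05) and 0.39 ± 0.11 in H9 (adjusted p = 0.0414), and the 4 effects were unequal (adjusted p = 0.00153). The H9 call was lost in 8 of 19 fits with a line or dose left out, among them each fit without an H9 dose (adjusted p = 0.0826 to 0.233). Against azacitidine the fall was not called without HH (-0.68, adjusted p = 0.233) or TLOm1 (-0.96, adjusted p = 0.0994). Against romidepsin it was not called without HH, TLOm1 or H9 (adjusted p = 0.149, 0.131 and 0.0582). By limma-voom the KRT7 changes were not called against untreated cells, azacitidine or romidepsin (adjusted p = 0.0731, 0.333 and 0.412), and by DESeq2 the change against romidepsin was not (adjusted p = 0.0544).

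Across the 32 libraries, after centring log2 CPM on each line, KRT8 and KRT18 had a Pearson r of 0.82. KRT7 had a negative r with each of the other 8 tested members, from -0.39 with CDH1 to -0.68 with KRT18. These values describe libraries that share drugs, doses and depth, and genes with few counts add noise. By the same measure the 3 most similar of all tested genes were KIF5A (0.90), RAB13 and PTGIR for KRT8, BRDT (0.91), FTL and GRHL1 for KRT18, and USP5 (0.86), COX6B1 and SRSF4 for KRT7. GRHL1 is a grainyhead-like transcription factor of epithelia.

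**Figure D3:**
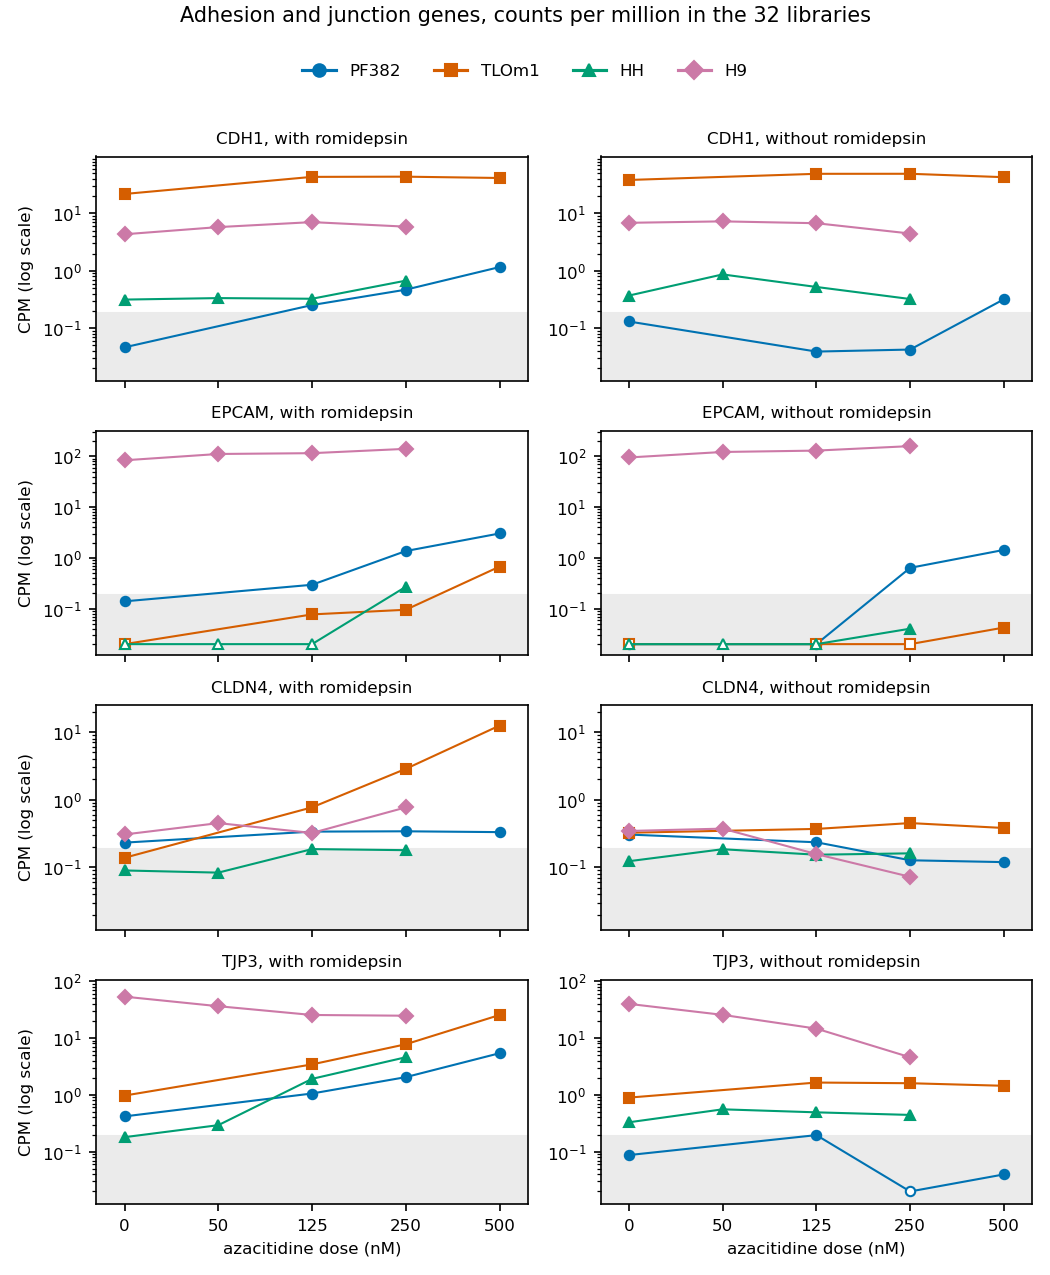
CPM of CDH1, EPCAM, CLDN4 and TJP3 (rows, log axis) against azacitidine dose in nM, with romidepsin (left) and without it (right), drawn as in the plot of keratin levels. Each point is 1 library. TJP3 climbs with azacitidine in PF382, TLOm1 and HH when romidepsin is present, and declines with dose in H9, more so without romidepsin.

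TJP3, which encodes the tight junction scaffold ZO-3, gave the clearest difference between azacitidine with and without romidepsin. PF382 held 9, 25, 48 and 130 TJP3 counts at 0, 125, 250 and 500 nM azacitidine with romidepsin, against 2, 5, 0 and 1 without romidepsin. TLOm1 held 21, 89, 163 and 489 counts at these doses with romidepsin, against 22, 40, 39 and 34 without it. HH held 4, 7, 41 and 102 counts at 0, 50, 125 and 250 nM with romidepsin, against 8, 9, 16 and 11 without it. In these 3 lines counts climbed with dose under romidepsin and were at most 40 without it. H9 started high and went the other way, with 1217, 883, 708 and 544 counts with romidepsin, against 1037, 750, 372 and 126 without it. Azacitidine 250 nM over untreated gave a CPM ratio of 0.115 in H9 (0.0949 to 0.139).

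Over the 4 lines TJP3 rose by 3.27 ± 0.76 log2 units when romidepsin was added to azacitidine 250 nM (adjusted p = 0.0154), and it was higher in 4 of 4 lines. With both drugs against untreated cells it rose by 2.14 ± 0.69 (adjusted p = 0.0287), and it was higher in 3 of 4 lines. Azacitidine 250 nM alone gave -1.13 ± 0.79 (adjusted p = 0.440). By line over the matched azacitidine doses, romidepsin raised TJP3 by 4.58 ± 1.18 in PF382 (adjusted p = 0.00971) and by 2.24 ± 0.61 in TLOm1 (adjusted p = 0.0127). It gave 1.83 ± 0.90 in HH and 0.94 ± 0.43 in H9, not called (adjusted p = 0.152 and 0.269). These 4 effects were not shown to be unequal (adjusted p = 0.151), and neither were the azacitidine effects (adjusted p = 0.0669), of which H9 had -1.17 ± 0.61 (adjusted p = 0.281).

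The TJP3 calls did not hold in every fit. Against untreated cells the change was 1.74 without PF382, 1.75 without TLOm1 and 1.43 without HH (adjusted p = 0.165, 0.157 and 0.236), and 3.63 without H9. Against azacitidine the change was 2.98 without PF382 (adjusted p = 0.0998) and 3.03 without HH (adjusted p = 0.107), and neither was called. limma-voom gave 0.31 against untreated cells (adjusted p = 0.830) and 2.68 against azacitidine (adjusted p = 0.0803), and the fit without cell line as a term gave -0.10 against untreated cells. The PF382 and TLOm1 romidepsin calls were lost without the 500 nM pair (3.47 and 1.39, adjusted p = 0.149 and 0.150). Set against the sum of both single-drug log2 changes, the combination exceeded it for TJP3 by 2.89 ± 1.01 and for CLDN4 by 2.52 ± 0.98, both at an unadjusted p under 0.05. Neither passed adjustment in edgeR, DESeq2 or limma-voom (0 of 9 members), and 0% of all genes were called in edgeR, with 596 genes at an unadjusted p under 0.05. TJP3 overlaps APBA3 in the annotation. APBA3 had 407 to 1509 counts per library and -0.14 ± 0.14 with both drugs (adjusted p = 0.504), and PF382 had 474 to 604 APBA3 counts beside TJP3 counts down to 0.

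EPCAM, a homophilic adhesion molecule of epithelia, was abundant in H9 and near 0 elsewhere. H9 held 1913, 2721, 3228 and 3109 EPCAM counts at 0, 50, 125 and 250 nM azacitidine with romidepsin, against 2482, 3594, 3311 and 4385 without romidepsin. PF382 held 3, 7, 32 and 73 counts at 0, 125, 250 and 500 nM with romidepsin, against 0, 0, 15 and 36 without it. With 3 counts as the floor of its untreated library, the highest combination was at least 23.1-fold above untreated PF382, and azacitidine 500 nM at least 10.97-fold. TLOm1 held 0, 2, 2 and 13 counts with romidepsin and 0, 0, 0 and 1 without it, and HH 0, 0, 0 and 6 with romidepsin and 0, 0, 0 and 1 without it, at their doses in order. Outside H9, EPCAM passed 3 counts without romidepsin in PF382 alone, at the 250 and 500 nM doses. Romidepsin raised EPCAM in PF382 by 1.20 ± 0.25 log2 units (adjusted p = 0.00141). The change called in TLOm1 (adjusted p = 0.00229) rests on 17 counts against 1 count and was lost without the 500 nM pair (adjusted p = 0.114). The 4 romidepsin effects were unequal (adjusted p = 3.10e-04), with -0.18 ± 0.08 in H9. In the 4-line comparison of both drugs with untreated cells EPCAM had 1.47 ± 0.56 (adjusted p = 0.0634). CALM2, a neighbour on the chromosome, had -0.04 ± 0.10 in that comparison (adjusted p = 0.825).

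CLDN4, a claudin of tight junction strands, had its highest counts in TLOm1 under both drugs. TLOm1 held 3, 20, 60 and 240 CLDN4 counts at 0, 125, 250 and 500 nM azacitidine with romidepsin, against 8, 9, 11 and 9 without romidepsin. The highest combination over untreated gave a ratio of 38.2 (19.1 to 89.6), and azacitidine without romidepsin stayed at 9 to 11 counts. Over the matched azacitidine doses romidepsin raised CLDN4 in TLOm1 by 2.65 ± 0.58 log2 units (adjusted p = 0.00182), a call lost without the 500 nM pair (1.39, adjusted p = 0.0702). Romidepsin alone over untreated gave a ratio of 0.427 there (0.0729 to 1.78). The other lines held 2 to 17 counts, and no test of CLDN4 passed there. The 4 line effects were not shown to be unequal for romidepsin (adjusted p = 0.149) or azacitidine (adjusted p = 0.391). Over 4 lines the change was 1.43 ± 0.62 against untreated cells (adjusted p = 0.102) and 2.04 ± 0.65 against azacitidine (adjusted p = 0.0650).

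CDH1, which encodes E-cadherin, the core of adherens junctions, was expressed in TLOm1 and H9, and no comparison averaged over the 4 lines called a change. TLOm1 held 472, 1125, 919 and 800 CDH1 counts at 0, 125, 250 and 500 nM azacitidine with romidepsin, against 942, 1192, 1196 and 1009 without romidepsin. H9 held 99, 141, 197 and 130 counts at 0, 50, 125 and 250 nM with romidepsin, against 179, 214, 172 and 123 without it. The count under romidepsin alone was the lowest in both lines, with a ratio to untreated of 0.570 in TLOm1 (0.509 to 0.637) and 0.631 in H9 (0.489 to 0.811). Azacitidine 250 nM without romidepsin gave 0.651 in H9 (0.513 to 0.823) and 1.28 in TLOm1 (1.18 to 1.40). HH held 7 to 17 counts. In PF382 there were 1, 6, 11 and 28 counts with romidepsin and 3, 1, 1 and 8 without it. Over these matched doses romidepsin raised CDH1 there by 1.79 ± 0.56 log2 units (adjusted p = 0.0202), though romidepsin alone held 1 count against 3 untreated. That call was lost in the 3 fits without the 125, 250 or 500 nM libraries of PF382 (adjusted p = 0.0533 to 0.191), and the 4 effects were unequal (adjusted p = 0.0451). With both drugs against untreated cells CDH1 had 0.25 ± 0.39 over 4 lines (adjusted p = 0.677), with CDH3, its neighbour, at 0 to 44 counts.

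**Figure D4:**
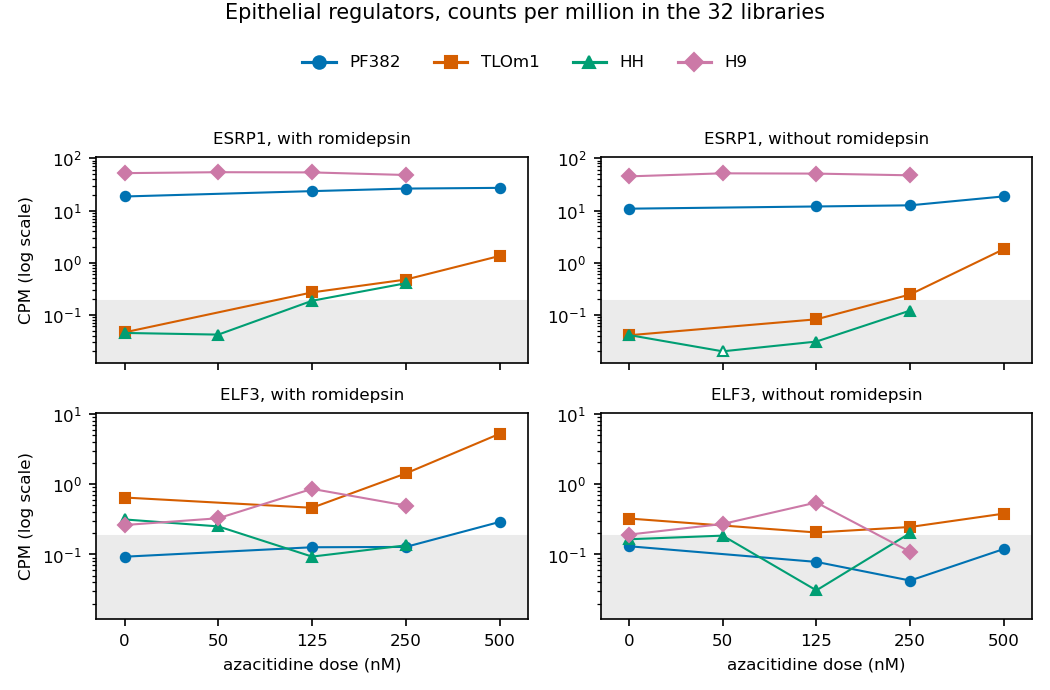
CPM of ESRP1 and ELF3 (rows, log axis) against azacitidine dose in nM, with romidepsin (left) and without it (right), drawn as in the plot of keratin levels. Each point is 1 library. ESRP1 is high in H9 and PF382 and appears in TLOm1 with azacitidine, and ELF3 leaves the range of the other lines in TLOm1 under both drugs.

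ESRP1, an RNA-binding protein that sets epithelial splicing, was high in H9 and PF382. H9 held 1063 to 1524 ESRP1 counts in its 8 libraries. PF382 held 401, 559, 619 and 657 counts at 0, 125, 250 and 500 nM azacitidine with romidepsin, against 249, 306, 297 and 469 without romidepsin. Romidepsin raised ESRP1 in PF382 by 0.81 ± 0.10 log2 units (adjusted p = 6.67e-06), with 0.07 ± 0.10 in H9 (adjusted p = 0.770). TLOm1 had 1, 7, 10 and 26 counts with romidepsin and 1, 2, 6 and 43 without it. Every TLOm1 library over 3 counts had azacitidine. Azacitidine at any dose was called in TLOm1 (adjusted p = 0.0232), with a CPM ratio of 44.9 at 500 nM against the single untreated count (7.64 to 1814), and the call was lost without the 500 nM libraries (adjusted p = 0.0592). HH had 1, 1, 4 and 9 counts with romidepsin and 1, 0, 1 and 3 without it. Its called romidepsin effect (1.72 ± 0.62, adjusted p = 0.0416) was lost in 4 of 19 fits, those without H9 or without HH at 50, 125 or 250 nM (adjusted p = 0.0619, 0.0664, 0.167 and 0.224). The 4 romidepsin effects were unequal (adjusted p = 0.00166).

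ELF3, an ETS factor of epithelial differentiation, had 1 to 24 counts in PF382, HH and H9. TLOm1 held 14, 12, 30 and 101 ELF3 counts at 0, 125, 250 and 500 nM azacitidine with romidepsin, against 8, 5, 6 and 9 without romidepsin. The 4 libraries with romidepsin lay above the 4 without it. Romidepsin raised ELF3 there by 2.35 ± 0.40 log2 units (adjusted p = 1.66e-04). The 4 effects were not shown to be unequal (adjusted p = 0.0893). ELF3 and CLDN4 had an r of 0.70, CLDN4 and TJP3 one of 0.68, and TJP3 and ELF3 one of 0.46. All 3 had their highest TLOm1 count in the same library.

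**Figure D5:**
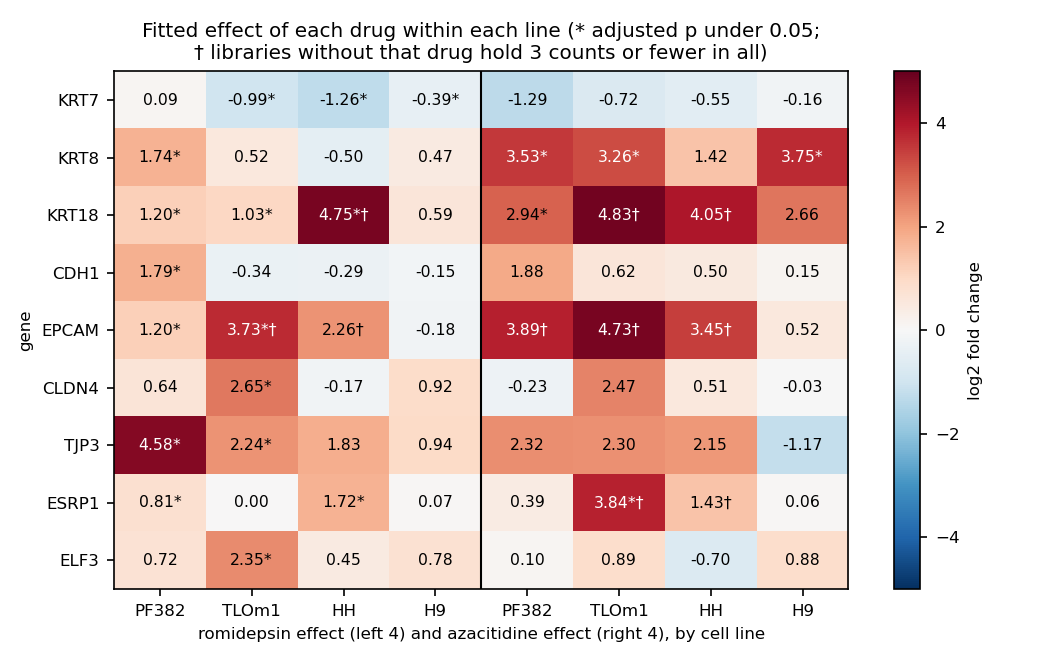
Fitted log2 change of the 9 tested genes (rows) for romidepsin at matched azacitidine dose (left 4 columns) and for azacitidine at any dose at matched romidepsin (right 4 columns), 1 column per line. Stars mark adjusted p under 0.05 and daggers mark cells where the line's libraries without that drug hold 3 counts or fewer in all, whose size depends on the fit's prior count. KRT7 is lowered by romidepsin in 3 lines, and KRT8 is raised by azacitidine in 3 lines.

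The romidepsin effect by line averages 1 pair of libraries without azacitidine and 3 pairs with it, so it is not that of romidepsin alone. Doses of both drugs differed between lines, so line and dose cannot be told apart in effects by line. Counted by line, romidepsin changed 6 of 9 members in PF382, where 30.7% of genes were called, and 6 of 9 in TLOm1, where 32.6% were. It changed 3 in HH, where 27.7% of genes were called, and 1 in H9, where 4.47% were. In PF382 the 6 were KRT8, KRT18, CDH1, EPCAM, TJP3 and ESRP1, all higher. In TLOm1 KRT18, EPCAM, CLDN4, TJP3 and ELF3 were higher and KRT7 was lower. The test of unequal romidepsin effects called 6 of 9 members and 33.0% of all genes. Azacitidine changed 2 members in PF382, 2 in TLOm1, 0 in HH and 1 in H9, where 8.33%, 18.7%, 5.87% and 5.86% of genes were called in that order of lines. None of 9 was called unequal for azacitidine, where 10.7% of genes were, with TJP3 and ESRP1 at an unadjusted p under 0.05. DESeq2 called 1 there, where it called 3485 genes in all, and limma-voom 0. In HH both tools also called 0 members for azacitidine, and 0 had an unadjusted p under 0.05.

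Other epithelial genes were counted from lists by role, chosen with earlier results of these data known. Of 17 tested adherens junction and desmosome genes, 11 rose with both drugs at 250 nM against untreated cells, none fell, and the list's median was 1.33 log2 units, against 0.04 over all genes. The filter on low counts took in treated libraries. A gene near 0 in untreated cells was tested only if counted elsewhere, so it could rise but hardly fall. The lack of falls and the median are in part fixed by that filter and are a description only. The called share of all genes in that comparison was 23.0%. DSP, the desmosomal plaque protein, rose by 5.02, PKP3 by 3.27, PPL by 3.22 and PVRL4 by 2.96 log2 units (adjusted p = 1.57e-04, 0.0157, 5.33e-04 and 1.63e-04). DSP counts differed by line: in the highest combination it held 885 counts in PF382, 43 in TLOm1, 5 in HH and 0 in H9, against 8, 0, 0 and 0 counts in the untreated cells of these lines. With azacitidine 250 nM alone 4 of 17 rose (EVPL, PKP3, PPL and PVRL4, median 0.73), where 5.99% of all genes were called.

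The same background of 23.0% of all genes with both drugs, and 5.99% with azacitidine alone, applies to the next 4 lists. So does the limit set by the filter on low counts. Of 51 other keratin symbols 17 were tested, and 7 rose with both drugs against untreated cells (median 1.71), led by KRT80 (4.23), KRT12, KRT2 and KRT1, with KRT6B alone called for azacitidine (2.51, adjusted p = 0.0454). Of 18 tight junction and polarity genes 5 rose and MPP5 fell (median 0.42), with CLDN7 at 3.66, CLDN23 at 2.35, INADL at 1.77 and F11R at 0.96. Of 11 epithelial regulators 5 rose and none fell (median 1.31), among them the RNA-binding protein RBM47 (4.69) and the transcription factors EHF (3.59) and GRHL3 (3.43). Of 12 epithelial surface and trafficking genes 6 rose (median 1.73), led by the receptor ERBB3 (4.16), SFN (3.58), S100A14 (3.36) and AP1M2 (2.88). For azacitidine 250 nM alone the counts were 1 of 17 keratins, 0 of 18, 1 of 11 and 2 of 12 in the same order. The tight junction share with both drugs and the keratin, junction and regulator shares with azacitidine lie near or below their backgrounds. Romidepsin alone gave 0 calls in each of these lists, with 1 keratin and 1 regulator at an unadjusted p under 0.05.

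Among 7 tested repressors and mesenchymal genes, ZEB1, which represses CDH1 and other epithelial genes, fell by 0.49 log2 units with both drugs (adjusted p = 0.00145) and by 0.35 with azacitidine (adjusted p = 0.0367). SNAI1, a repressor of the same genes, rose by 2.22 and 1.43 (adjusted p = 8.17e-05 and 0.0119), and FN1, fibronectin, rose by 2.28 with both drugs (adjusted p = 2.20e-06).

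Markers of other lineages were called about as often as genes in general. The limit set by the filter on low counts applies to them too. With both drugs against untreated cells 2 of 7 B-cell markers, 2 of 6 tested myeloid markers, 2 of 7 fibroblast markers and 1 of 3 tested endothelial markers rose and none fell, with medians of 1.59, 0.84, 2.22 and 1.94, where 23.0% of all genes were called. Among them were CD79B, MPO, CD68, COL1A1, COL3A1 and PECAM1. Summed over each list, the libraries with both drugs at 250 nM held 18.4 to 396 CPM of B-cell markers, 3.03 to 13.5 of myeloid, 9.03 to 57.4 of fibroblast and 0.0453 to 62.7 CPM of endothelial markers. The untreated libraries held 1.91 to 406, 1.46 to 5.51, 0.864 to 89.1 and 0.0767 to 28.2 CPM in that order. Over the floor were 4 to 7 of 7, 2 to 6 of 9, 2 to 6 of 7 and 0 to 3 of 5 markers with both drugs, against 1 to 4, 1 to 4, 1 to 3 and 0 to 2 in untreated cells. PAX5, DCN and LUM were at 0 in all 8 H9 libraries. T-cell markers summed to 1678 to 3088 CPM with both drugs, against 1899 to 2792 in untreated cells, with 2 of 14 higher (CD8A and LAT) and 2 lower (CD3E and CD247). Their part in the changes of the keratin and adhesion genes was not tested.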

How the data were processed

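The 10 genes, and the gene lists set beside them, were chosen with earlier results of these data known. The authors deposited raw counts, 1 file for each of the 32 libraries, each listing 25559 gene symbols. STAR, DESeq2, limma and the build GRCh37.p2 are named, per the submitters' processing notes. How reads were assigned to genes and strands is not given in the sources used here. Libraries came from the TruSeq Stranded mRNA kit, per the labels, which give poly(A) RNA as the molecule and also mention depletion of ribosomal RNA.

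Counts were tested with edgeR 4.0.16 in R 4.3.3 (limma 3.58.1): TMM scaling, robust dispersions, the quasi-likelihood F test, and Benjamini-Hochberg adjustment over the 17801 symbols kept by filterByExpr (minimum count 10, minimum total 15), with a threshold of 0.05. All 32 libraries entered each fit, so the spread is pooled and libraries of a line count as independent; it is not the spread between cultures of a line. Model 1 had 10 treatment groups plus cell line (19 residual degrees of freedom). Model 2 had the log2 azacitidine dose within line and romidepsin status (15). Models 3 and 4 gave romidepsin per line at matched azacitidine (12) and azacitidine per line at matched romidepsin (20), each with a test of unequal line effects. SE is the absolute log2 change over the square root of F. Same-line libraries deviated together (60 of 60 pairs of groups, r from 0.860 to 0.973), and the lines pair the samples by design.

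Levels per kilobase used GENCODE v29 principal transcripts. Ratios of 2 libraries carry exact 95% intervals, and 0 counts were set to 3 for a bound. The edgeR fit of each model was tested on simulated data, for a single comparison per model and with changes placed in well-counted genes. The other steps were not tested that way. Named genes were all members, up to 4 called genes of largest change per list, the 3 most similar genes per member (log2 CPM, prior count 2), and neighbours or pseudogenes, and a few of these are not reported here. DSP counts by line and the MPP5 fall were added after values were seen. Alternatives included DESeq2 1.42.0, limma-voom, other scalings and filters, the fit without the block and leaving out lines or doses.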

Additional observations from a re-analysis of the deposited data

Results flagged for a closer look

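EPCAM in H9 stood far from the other 3 lines in 3 groups: at 130 CPM with azacitidine 125 nM, 83.7 CPM with romidepsin and 95.2 CPM untreated. The gap to the nearest line took up nearly the whole range of the group, and in the other 3 lines these libraries held 3 counts or fewer. Untreated and at azacitidine 125 nM those 3 lines held 0 counts, so the gap was the whole range whatever the H9 level. H9 was apart in every condition, with at least 1913 EPCAM counts against at most 73 in any other line. Over 54 sets of 4 lines tested, 3 had a line apart, and chance gives about 1 in 20.

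The effect of romidepsin differed between the 4 lines, by edgeR's quasi-likelihood F test, for EPCAM (adjusted p = 3.10e-04), KRT7 (0.00153), ESRP1 (0.00166), KRT8 (0.0259), CDH1 (0.0451) and KRT18 (0.0497). EPCAM, ESRP1, KRT8 and CDH1 had called rises in PF382 and values between -0.50 and 0.52 in at least 1 other line. The rise was not limited to PF382. EPCAM was also called in TLOm1 (3.73 against 1.20 in PF382) and ESRP1 in HH (1.72 against 0.81), both on few counts. KRT18 had called rises in PF382 (1.20), TLOm1 (1.03) and HH (4.75, on few counts), with 0.59 in H9 not called. KRT7 was lowered in HH, TLOm1 and H9, with 0.09 in PF382.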

How the results depend on the processing

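Without cell line as a term (no replicate block), 0 members were called in each of the comparisons at 250 nM. That fit called few genes of any kind: 1 for azacitidine, 5 for the combination against untreated cells, 0 against azacitidine and 1 against romidepsin. In it TJP3 with both drugs against untreated cells turned to -0.10 (adjusted p = 1.00). With the compared libraries alone, calls numbered 0 for azacitidine, 1 for the combination against untreated cells, 0 against azacitidine and 1 against romidepsin. Over all genes the calls numbered 0, 22, 0 and 39 in that order. With the highest dose in each line in place of 250 nM, the combination had 7 calls against untreated cells, 5 against azacitidine and 7 against romidepsin. All genes called rose as well, to 6127, 2660 and 4879 in that order, from 4089, 1010 and 2515 in the main fit. limma-voom gave 2 for the combination against untreated cells, 1 for romidepsin in HH and 4 for azacitidine in TLOm1, and DESeq2 gave 5 for the dose slope and 1 for unequal azacitidine effects. Over all genes limma-voom called 4297, 5026 and 3324 there, and DESeq2 called 4849 and 3485. With no filter on low counts, azacitidine in PF382 had 1 call, where 1222 genes were called in all.

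Leaving out a line or dose gave 1 to 2 calls for azacitidine, 3 to 5 for the combination against untreated cells, 0 to 2 against azacitidine, 2 to 5 against romidepsin and 2 to 7 for the slope. For romidepsin it gave 4 to 6 in PF382, 2 to 6 in TLOm1, 1 to 3 in HH, 0 to 1 in H9 and 2 to 8 for inequality. For azacitidine it gave 1 to 3 in PF382, 1 to 5 in TLOm1, 1 to 2 in H9 and 0 to 2 for inequality. Romidepsin alone, the departure from the sum and azacitidine in HH stayed at 0. All genes called moved too: without H9, 446 were called for azacitidine 250 nM, against 1066 in the main fit. Without HH, 202 were called for the combination against azacitidine, against 1010. A changed count of members is therefore not a result about the members. Of the called values under alternatives, 635 kept direction and call, 84 lost the call and 1 turned; of the uncalled, 1740 stayed uncalled with the same sign, 49 became called and 43 changed sign. The cause was not tested. TJP3 with both drugs against untreated cells was 0.31 by limma-voom (adjusted p = 0.830), and KRT7 there was not called (adjusted p = 0.0731). Low counts limit KRT18, EPCAM and ESRP1 in TLOm1 and HH, and CLDN4 and ELF3 outside TLOm1.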
